A study of Mus musculus with 6 samples.

Results

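The angiopoietins and their Tie receptors are the 4 genes Angpt1, Angpt2, Tek and Tie1, chosen by name from the 41799 genes of an RNA-sequencing table of liver sinusoidal endothelial cells (SECs), the fenestrated endothelium that lines the hepatic sinusoids. All 4 were detected in every library and all 4 were tested. Libraries came from 3 samples of mice with an endothelial RBPj knock-out (KO) and 3 samples of control mice, and RBPj is the DNA-binding protein through which Notch receptors act on transcription. Both groups were male mice of 12 to 14 weeks that had received tamoxifen (2 mg per 20 g, for 7 days, begun at 4 to 6 weeks of age) and, after 1 week of rest, carbon tetrachloride (CCl4, 0.6 µl per g, 15% in olive oil, 2 injections a week for 6 weeks), so every library came from a fibrotic liver. The labels call the knock-out endothelial and name neither the Cre driver nor the deleted allele, and they do not say whether replicates were separate mice, so the p-values reflect how far these samples differ, which may be technical. The strain label reads C57BL/6 for the controls and KO replicate 1, C57BL/7 for KO replicate 2 and C57BL/8 for KO replicate 3.

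Angiopoietins are secreted ligands of the receptor tyrosine kinase Tie2, which is encoded by Tek. Angpt1 is made mainly by perivascular cells, stellate cells among them, and activates Tie2 to keep vessels quiescent. Angpt2 is made by endothelial cells, is released on activation, and blocks or weakly activates Tie2 depending on the setting. Tie1 binds no angiopoietin by itself and modulates Tie2 as a co-receptor. In the liver, Angpt2 made by SECs and Tie2 on SECs have been linked to regeneration and to the vessel remodelling of fibrosis.

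Total counts per library ran from 10372195 to 12326770, and 3 counts corresponded to 0.243 to 0.289 CPM (counts scaled to library size, here normalized by TMM to a common scale). Rbpj, which checks the labels, was at 11.6, 8.10 and 11.9 CPM in KO SECs, against 18.6, 14.5 and 16.4 CPM in control SECs. The groups did not overlap, and the log2 fold change was -0.64 ± 0.19 (SE, adjusted p 0.187 by edgeR's quasi-likelihood test with Benjamini-Hochberg adjustment). This is a ratio of 0.64 from 99 to 174 counts a library, so the check of the labels is weak. Over all 15404 tested genes, 16 were higher and 14 were lower in KO SECs at an adjusted p under 0.05, and 8 were higher and 26 lower when libraries were scaled to pan-endothelial markers. The summed level of 11 SEC markers (Stab2 and Lyve1 among them) was 17257 to 23159.7 CPM in KO libraries and 12805 to 18477 CPM in control libraries. These markers went both ways, 7 with positive and 4 with negative log2 fold changes (median 0.16), with Stab2 at 0.86, Lyve1 at -0.73 and Clec4g at -1.03, and 0 passed the adjusted threshold. The sum of 17 stellate cell markers was 1929 to 6882 CPM in KO libraries and 5479 to 14921 CPM in control libraries.

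Angpt1 was lower in every KO library than in every control library, Tie1 was higher in every KO library, Angpt2 was on average lower with overlapping groups, and Tek was at nearly the same level in both groups. By edgeR's quasi-likelihood test with Benjamini-Hochberg adjustment over all tested genes, 0 of the 4 genes passed the threshold of 0.05, beside 0.195% of all tested genes (0.104% higher and 0.0909% lower). An unadjusted p under 0.05 was found for 3 of the 4 genes, 1 higher and 2 lower, beside 17.5% of all tested genes (9.39% higher and 8.13% lower). The groups did not overlap for 2 of the 4 genes, 1 higher and 1 lower, beside 24.9% of all tested genes (13.2% and 11.7%). DESeq2, which called 5.64% of all genes it tested, called Angpt1 lower and Tie1 higher. Angpt1 was also called lower by limma-voom with sample quality weights, which called 3.49% of all genes, and by edgeR without the low-count filter, which called 0.65% of them.

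**Figure D1:**
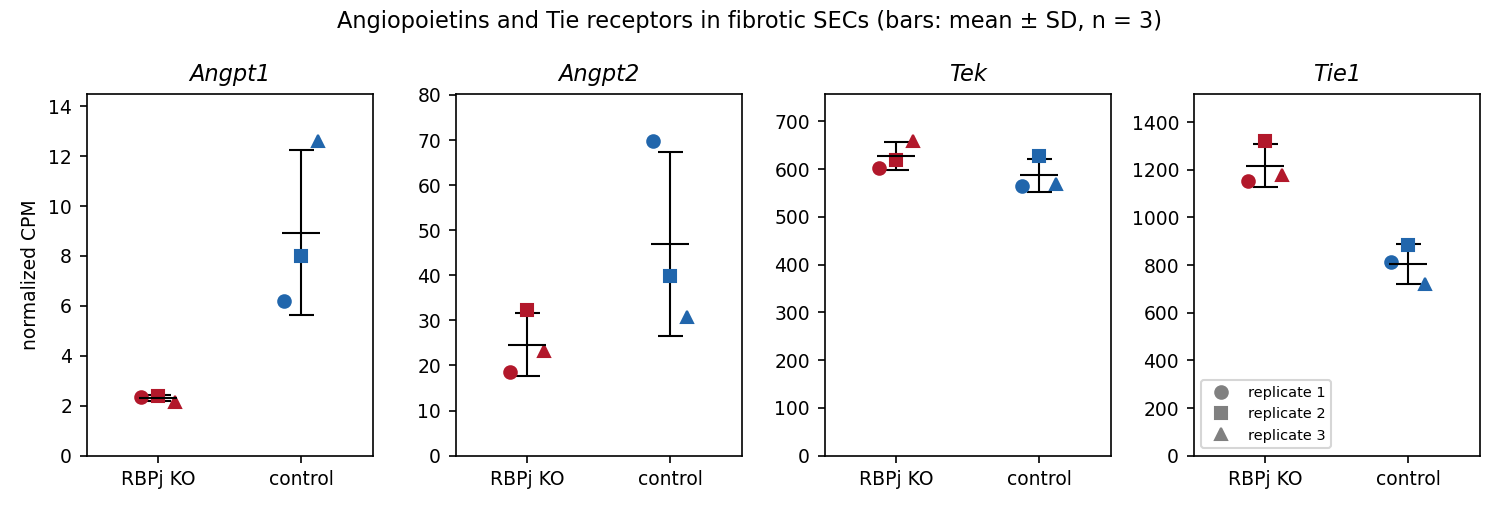
Normalized CPM of the 4 genes (y axes, linear and starting at 0) in KO SECs (red, left of each panel) and control SECs (blue, right), with 1 point per library, shapes for replicate numbers, and bars for the mean ± SD of 3 libraries. The KO points of Angpt1 lie between 2.17 and 2.37 CPM, below the lowest control at 6.18 CPM, and the KO points of Tie1 lie between 1155 and 1322 CPM, above the highest control at 885 CPM.

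The order of levels per base of transcript was the same in all 6 libraries, Tie1 first, then Tek, Angpt2 and Angpt1. On the RPKM scale (reads divided by transcript length and library total), Tie1 averaged 323 ± 13.4 in KO SECs and 202 ± 33.7 in control SECs (SD, n = 3 each). Tek averaged 137 ± 8.87 RPKM in KO SECs and 121 ± 16.6 RPKM in control SECs. These levels placed the receptor genes among the most abundant transcripts of the cells, since 99.1% of tested genes had a lower mean RPKM than Tie1 and 97.7% a lower one than Tek. Angpt2 averaged 7.09 ± 1.79 RPKM in KO SECs and 12.6 ± 4.80 RPKM in control SECs, and 59.8% of tested genes were below it. Angpt1 averaged 0.539 ± 0.0224 RPKM in KO SECs and 1.97 ± 0.729 RPKM in control SECs, and 17.7% of tested genes were below it. Over the 6 libraries the ranges of neighbours in this order did not overlap.

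Angpt1 lies on chromosome 15 (chr15:42424667-42676977, mm10, minus strand), a span of 252 kb with 9 exons. It was measured from few reads, 26, 29 and 28 counts in KO replicates 1, 2 and 3, against 58, 95 and 133 counts in control replicates 1, 2 and 3. The normalized levels were 2.36, 2.37 and 2.17 CPM in KO SECs, against 6.18, 8.02 and 12.6 CPM in control SECs. All KO libraries were low and close together, while the control libraries spread over a wider range, with control replicate 3 the highest. The means were 2.30 ± 0.115 CPM in KO SECs and 8.94 ± 3.31 CPM in control SECs (SD, n = 3 each). The log2 fold change was -1.95 ± 0.31 (SE, 95% interval -2.69 to -1.21), which is 3.87-fold lower in KO SECs, with an unadjusted p of 5.71e-04 and an adjusted p of 0.0704 by edgeR. By this measure Angpt1 ranked 124 of 15404 genes by p. The adjusted p was 0.0213 in edgeR without the filter on low counts, 0.0269 in limma-voom and 4.04e-05 in DESeq2, with log2 fold changes of -1.95, -1.92 and -1.96.

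Markers of stellate cells, which make Angpt1, had the same sign, although none of them passed the adjusted threshold. The summed level of 17 stellate cell markers was 1929, 6882 and 4855 CPM in KO replicates 1, 2 and 3, against 5479, 8471 and 14921 CPM in control replicates 1, 2 and 3. The sums overlapped, since KO replicate 2 was above control replicate 1. Col3a1, a collagen gene, was the largest part of the sum in every library. It was at 3094 CPM in KO replicate 2 and 1742 CPM in control replicate 1, and its log2 fold change was -0.77. Col1a1, another collagen gene, was also higher in KO replicate 2 (1451.5 CPM) than in control replicate 1 (677 CPM). The overlap of the sums does not describe most single markers. All 17 markers had negative log2 fold changes with a median of -1.45, and 12 of them lay lower in every KO library, beside 11.7% of all tested genes. In edgeR 0 passed the adjusted threshold and 8 were lower at an unadjusted p under 0.05, beside 8.13% of all tested genes. None of the 17 was at 0. Among the defining ones, Lrat, the retinol-storing enzyme of stellate cells, had a log2 fold change of -2.24 with an adjusted p of 0.267, and Reln, a matrix protein they secrete, had -1.92 with an adjusted p of 0.297. Per 1000 counts of these markers, Angpt1 had 1.22, 0.345 and 0.447 counts in KO libraries, against 1.13, 0.946 and 0.846 counts in control libraries. KO replicate 1 was the highest of all 6 on this scale and the other 2 KO libraries were the lowest, so the groups overlapped. The log2 difference on this scale was -0.75 with an exact two-sided permutation p of 0.4, against a smallest possible p of 0.1 for 3 against 3. Without the libraries lowest and highest in these markers, KO replicate 1 and control replicate 3, the log2 fold change of Angpt1 was -1.64 with an adjusted p of 0.0934 by edgeR. The share of stellate cell RNA in the Angpt1 difference was not tested further, and in bulk libraries fewer cells of a type and less RNA per cell cannot be told apart.

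Mural cells, the smooth muscle cells and pericytes of larger vessels, are another source of Angpt1. Their 7 markers summed to 728, 611 and 497 CPM in KO libraries, against 536, 463 and 782 CPM in control libraries. The groups overlapped in that sum, and Abcc9, a potassium channel subunit, was its largest part in every library. Of these 7 markers, 6 were tested, 2 with positive and 4 with negative log2 fold changes (median -1.15). In edgeR 0 passed the adjusted threshold. At an unadjusted p under 0.05, 1 was higher and 2 were lower, beside 9.39% and 8.13% of all tested genes. Abcc9 and Kcnj8 were the positive ones (0.41 and 1.21), while the contractile gene Myh11 (-2.54), Tagln (-1.50), Notch3 (-1.17) and Cspg4 (-1.14) were negative. Myh11 was at 1.64, 9.17 and 7.05 CPM in KO libraries, against 14.2, 33.4 and 56.6 CPM in control libraries, without overlap (adjusted p 0.186 by edgeR). Angpt1 was also given per 1000 counts of the 7 mural cell markers. On this scale it had 3.25, 3.88 and 4.37 counts in KO libraries, against 11.5, 17.3 and 16.1 counts in control libraries. These groups did not overlap, and the log2 difference was -1.96 with an exact two-sided permutation p of 0.1. Abcc9, with its positive log2 fold change, weighs most on this scale. The part of mural cells in the Angpt1 difference was not tested further.

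**Figure D2:**
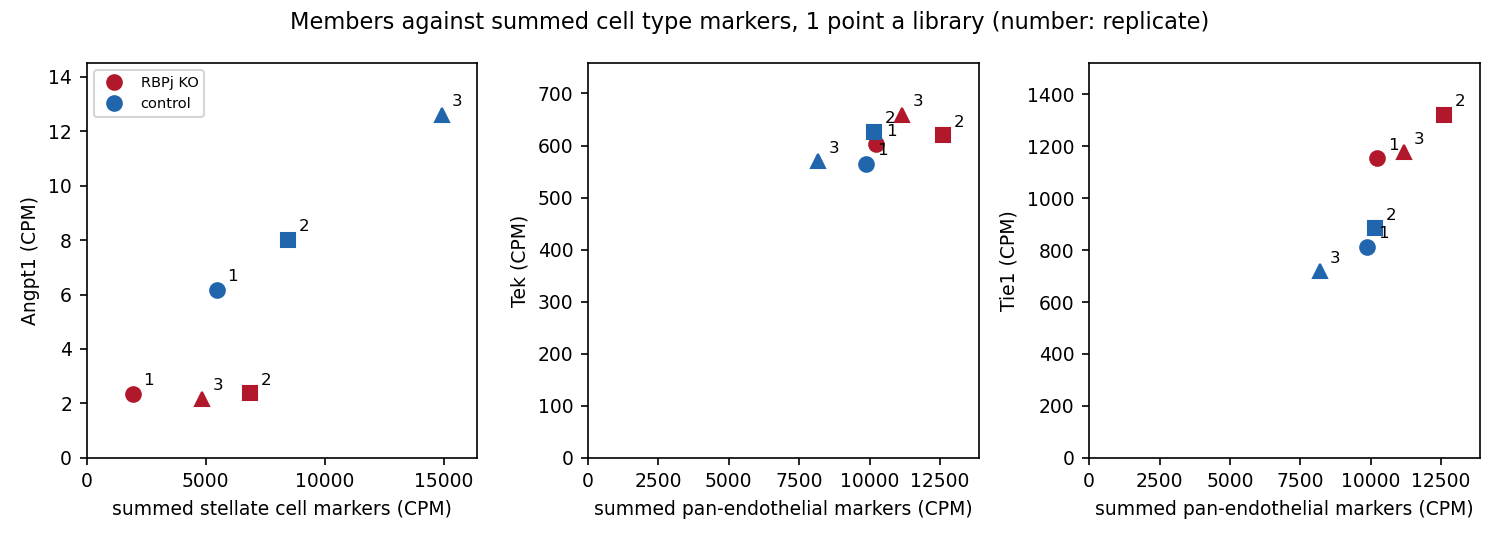
Levels of Angpt1, Tek and Tie1 (y axes, normalized CPM) against the summed CPM of cell type markers (x axes) in the 6 libraries, KO in red and control in blue, numbered by replicate. In the Angpt1 panel the KO libraries stay between 2.17 and 2.37 CPM while their stellate marker sums run from 1929 to 6882 CPM, and the control libraries lie higher on both axes except for control replicate 1, whose marker sum of 5479 CPM is below that of KO replicate 2.

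Angpt2 lies on chromosome 8 (chr8:18690263-18741562, mm10, minus strand) and has 9 exons. It had 203, 394 and 300 counts in KO replicates 1, 2 and 3, against 655, 473 and 325 counts in control replicates 1, 2 and 3. The normalized levels were 18.4, 32.2 and 23.2 CPM in KO SECs, against 69.8, 39.9 and 30.8 CPM in control SECs. KO replicate 2 was above control replicate 3, so the groups overlapped, and control replicate 1 stood far above the rest. The means were 24.6 ± 7.01 CPM in KO SECs and 46.9 ± 20.4 CPM in control SECs (SD, n = 3 each). The log2 fold change was -0.93 ± 0.36 (SE, 95% interval -1.80 to -0.05), with an unadjusted p of 0.0415 and an adjusted p of 0.265 by edgeR. Without control replicate 1 it was -0.52 with an adjusted p of 0.376, and without KO replicate 2 it was -1.17. Angpt2 passed the threshold under none of the settings run, with adjusted p-values of 0.13 to 0.517.

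Angpt2 lies inside the span of Mcph1, a gene of chromosome condensation that is read from the opposite strand, and shares 0 exon bases with it in the GENCODE annotation. The use of strand in the counting is not stated in the sources used here, so their reads cannot be told apart by strand. Mcph1 was at 10.5, 13.8 and 12.2 CPM in KO SECs, against 7.89, 9.45 and 10.3 CPM in control SECs, a log2 fold change of 0.40 with an adjusted p of 0.306 by edgeR. Its values were thus higher in KO SECs where those of Angpt2 were on average lower. The same-strand long non-coding RNA Gm35832 inside Angpt2 had 16 counts in all KO libraries and 14 counts in all control libraries, and LOC105245941 inside Angpt1 had 1 and 3 counts.

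Tek encodes Tie2 and lies on chromosome 4 (chr4:94739289-94874976, mm10, plus strand), with 22 or 23 exons depending on the transcript. It had 6629, 7570 and 8514 counts in KO replicates 1, 2 and 3, against 5302, 7427 and 6006 counts in control replicates 1, 2 and 3. The normalized levels were 602, 619.6 and 659.6 CPM in KO SECs, against 565, 627 and 569.7 CPM in control SECs. The groups overlapped, since control replicate 2 was above KO replicates 1 and 2. The means were 627 ± 29.3 CPM in KO SECs and 587 ± 34.3 CPM in control SECs (SD, n = 3 each), and the log2 fold change was 0.09 ± 0.11 (SE), with an adjusted p of 0.689 by edgeR. Its 95% interval of -0.18 to 0.37 was the narrowest of the 4 genes and reached to both sides of 0. Scaled to the pan-endothelial markers, the log2 fold change was -0.17 with an adjusted p of 0.482, and that scaling also put the median of all genes at -0.298, against -0.0288 with TMM.

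Tie1 lies on the same chromosome (chr4:118471191-118489849, mm10, minus strand), spans 18.7 kb and has 22 or 23 exons. It had 12705, 16152 and 15187 counts in KO replicates 1, 2 and 3, against 7621, 10491 and 7576 counts in control replicates 1, 2 and 3. The normalized levels were 1155, 1322 and 1177 CPM in KO SECs, against 813, 885 and 719 CPM in control SECs. The lowest KO library was above the highest control library. The means were 1218 ± 91.0 CPM in KO SECs and 806 ± 83.6 CPM in control SECs (SD, n = 3 each). The log2 fold change was 0.60 ± 0.14 (SE, 95% interval 0.26 to 0.93), a ratio of 1.51, with an unadjusted p of 0.00454 and an adjusted p of 0.133 by edgeR. DESeq2 gave the same log2 fold change of 0.60 with an adjusted p of 0.00464, and the adjusted p under the other settings was 0.0592 or more. No other gene of the table overlaps Tek or Tie1.

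Pan-endothelial markers were higher in sum in the KO libraries. The 11 markers summed to 10237, 12609 and 11166 CPM in KO libraries, against 9883, 10156 and 8188 CPM in control libraries, and of the 10 that were tested 9 had positive log2 fold changes (median 0.37), 3 had an unadjusted p under 0.05 (9.39% of all tested genes were higher at that level) and 0 passed the adjusted threshold in edgeR. Their log2 fold changes ran from -0.16 for Eng to 0.74 for Erg, which had few counts. Egfl7 (0.56) and Cdh5 (0.50), both without overlap between groups, were near the 0.60 of Tie1. Cldn5, a tight junction protein, was at 0 counts in all libraries, and whether the counting could register this gene is not known. Per 1000 counts of these markers Tie1 had 113, 105 and 105 counts in KO libraries, against 82.2, 87.2 and 87.8 counts in control libraries. These groups did not overlap, and the log2 difference was 0.33 with an exact two-sided permutation p of 0.1, the smallest that 3 against 3 allows. Tek had 58.8, 49.1 and 59.1 counts per 1000 marker counts in KO libraries, against 57.2, 61.7 and 69.6 counts in control libraries, a log2 difference of -0.17 with overlapping groups and an exact permutation p of 0.3. Angpt2 had 1.80, 2.56 and 2.08 counts per 1000 marker counts in KO libraries, against 7.07, 3.93 and 3.77 counts in control libraries, and on this scale its groups did not overlap (log2 difference -1.15, exact permutation p of 0.1).

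**Figure D3:**
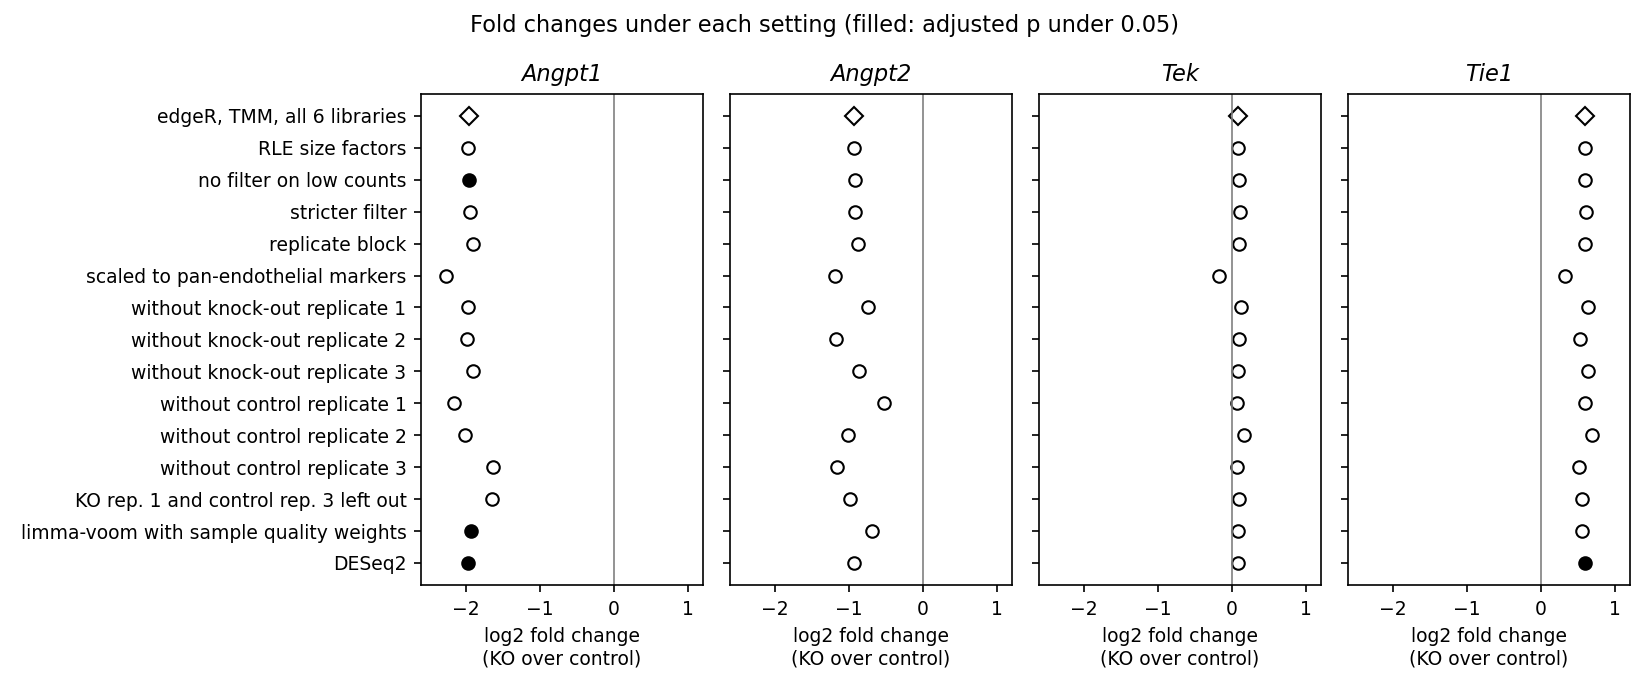
Log2 fold changes (x axes, KO over control) of the 4 genes under each analysis setting (y axis), diamonds for edgeR with TMM on all 6 libraries, circles for the other settings, and filled symbols for an adjusted p under 0.05. Angpt1 ranges from -2.26 to -1.63 and is filled at 3 settings, Tie1 ranges from 0.33 to 0.69 and is filled at 1, and Angpt2 and Tek are filled at none.

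The letters upstream of the receptor genes are shown because the deleted factor binds DNA. Windows of 250 bases before and 50 after the start site were searched on both strands for TGGGAA, the core of the RBPJ motif, for GGAA, the core of ETS factors that act in endothelial promoters and which overlaps the end of TGGGAA, and for GTAAACA, a forkhead motif. RefSeq windows (GRCm38.p6) were found for 2 of the 4 genes, Tek and Tie1, and Angpt1 and Angpt2 are only named. The window of Tek held 0 matches of TGGGAA and 2 of GGAA, both on the other strand and written as TTCC in capitals in the 250 bases before its start site (chr4:94739039-94739288, plus strand).
Tek: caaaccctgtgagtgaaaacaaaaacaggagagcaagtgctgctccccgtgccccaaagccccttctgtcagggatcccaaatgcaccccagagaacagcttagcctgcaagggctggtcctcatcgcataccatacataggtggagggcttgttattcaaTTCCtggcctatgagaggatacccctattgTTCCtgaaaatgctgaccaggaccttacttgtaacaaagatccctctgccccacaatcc
The window of Tie1 held 1 match of TGGGAA, from 16 to 11 bases before the start site on the other strand, and 9 of GGAA, of which 1 lies inside that match. The 30 bases around it (chr4:118489848-118489877, minus strand) show it as TTCCCA in capitals.
Tie1: aggcgacaactcTTCCCAccctctctccct
Of 32851 RefSeq windows of the same 300 bases, 25.6% held TGGGAA, 96.0% held GGAA and 3.65% held GTAAACA, which was in neither receptor window. These are matches of letters and not measured binding.

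The balance between the genes was compared within each library as the log2 ratio of counts per base, with 0.5 added to each count, which does not depend on library size. Tie1 over Tek was 1.22, 1.37 and 1.12 in KO replicates 1, 2 and 3, against 0.80, 0.78 and 0.62 in control replicates 1, 2 and 3. The groups did not overlap, with Tie1 transcripts at 2.17 to 2.59 times those of Tek in KO SECs and 1.53 to 1.75 times in control SECs. The difference in this log2 ratio was 0.50, a 1.42-fold higher ratio in KO SECs, with an exact two-sided permutation p of 0.1, the smallest that 3 against 3 allows.

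Angpt2 over Tek, the antagonist ligand against its receptor, had log2 ratios of -4.62, -3.86 and -4.42 in KO SECs, against -2.61, -3.57 and -3.80 in control SECs. Every KO library was below every control library, although KO replicate 2 and control replicate 3 were nearly level. The difference was -0.97 with an exact permutation p of 0.1, and without control replicate 1 it was -0.62. Angpt2 over Angpt1, the balance of both ligands, had log2 ratios of 3.25, 4.05 and 3.70 in KO SECs, against 3.79, 2.62 and 1.59 in control SECs. Control replicate 1, which had the most Angpt2 and the least Angpt1 of its group, lay among the KO libraries, so the groups overlapped. The difference was 1.0 with an exact permutation p of 0.3, and it was 0.46 without control replicate 3 and 1.56 without control replicate 1.

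**Figure D4:**
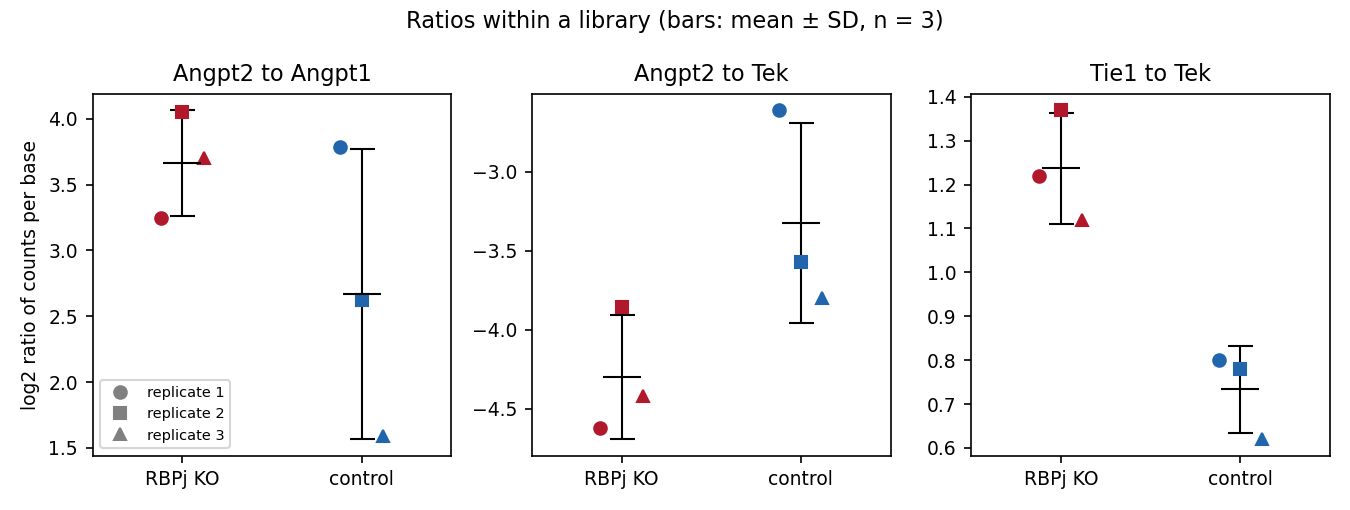
Log2 ratios of counts per base within a library (y axes, which do not start at 0) for Angpt2 to Angpt1, Angpt2 to Tek and Tie1 to Tek, KO in red at left and control in blue at right, with bars for the mean ± SD of 3 libraries. Tie1 to Tek lies between 1.12 and 1.37 in KO SECs and between 0.62 and 0.80 in control SECs.

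Among 58 receptor tyrosine kinases ranked by mean RPKM, Tie1 was the third in all 6 libraries, after the VEGF receptors Kdr and Flt4. Tek was the fifth in the 3 KO libraries and ranked between 4 and 6 in the control libraries, and by mean RPKM over all libraries it lay between Ephb4, the venous receptor for ephrin-B2, and Kit, the stem cell factor receptor. Within single libraries Kit was next to Tek in KO replicates 2 and 3, and ranked 7 in KO replicate 1 and 6 to 9 in the controls. Flt4 averaged 507 ± 78.5 RPKM in KO SECs and 292 ± 93.8 RPKM in control SECs, with a log2 fold change of 0.72 and an adjusted p of 0.243 by edgeR. Kdr averaged 501 ± 102 RPKM in KO SECs and 366 ± 73.1 RPKM in control SECs, with a log2 fold change of 0.38 and an adjusted p of 0.432. Flt4 and Kit, like Tie1, had no overlap between groups, and Kdr and Ephb4 did. Kit averaged 100.1 ± 17.8 RPKM in KO SECs and 64.1 ± 5.02 RPKM in control SECs (log2 fold change 0.55, adjusted p 0.188), and Ephb4 averaged 149 ± 8.43 RPKM in KO SECs and 132 ± 29.8 RPKM in control SECs (0.11, adjusted p 0.752).

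The other genes of the pathway formed a list of 37, of which 35 were tested. By edgeR 0 of the 35 passed the adjusted threshold in either direction and 6 had an unadjusted p under 0.05, 2 higher and 4 lower, which is near the 17.5% of all tested genes. DESeq2 called 3 (Mmp14, Itga5 and Akt2) beside 5.64% of all genes, and limma-voom 2 (Itga5 and Dok2) beside 3.49%. The log2 fold changes were positive for 9 and negative for 26, with a median of -0.23 beside -0.03 over all tested genes, and 10 of 35 (28.6%) had no overlap between groups beside 24.9% of all tested genes. Angpt4, the third angiopoietin of the mouse, had 10 counts in all 6 libraries and Dok1, an adaptor, had 1, and neither was tested.

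Of the other ligands, Lect2, a secreted hepatocyte protein that binds Tie1, was at 1.64, 0.0818 and 1.86 CPM in KO SECs, against 0.640, 1.35 and 7.30 CPM in control SECs. Its groups overlapped widely, and the summed markers of hepatocytes, the cells that make it, also varied more between replicates than between groups (2828, 192 and 1746 CPM in KO libraries, against 448, 1406 and 2033 CPM in control libraries). Svep1, a matrix protein described as a Tie1 ligand, averaged 26.8 ± 13.3 CPM in KO SECs and 38.1 ± 20.8 CPM in control SECs, with an adjusted p of 0.642 by edgeR.

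At the receptor level, Ptprb, the endothelial phosphatase that removes phosphate from Tie2, was at 2541, 3399 and 2982 CPM in KO SECs, against 4406, 4679.6 and 3463 CPM in control SECs. Every KO library was below every control library, although KO replicate 2 was close to control replicate 3. The log2 fold change was -0.49 ± 0.19 (SE), with an unadjusted p of 0.0422 and an adjusted p of 0.267 by edgeR. Mmp14, a membrane metalloproteinase reported to release the Tie2 ectodomain, was at 588, 606 and 556 CPM in KO SECs, against 415, 465 and 405 CPM in control SECs. The groups did not overlap, and the log2 fold change of 0.45 had an adjusted p of 0.151. Adam17, the sheddase of Tie1, was at 126 ± 15.4 CPM in KO SECs and 119 ± 9.39 CPM in control SECs, with overlapping groups and an adjusted p of 0.765.

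Integrins can bind angiopoietins and pair with Tie2. Itga5, the fibronectin receptor alpha chain, was at 236, 238 and 229 CPM in KO SECs, against 155, 175 and 167 CPM in control SECs. It had the smallest adjusted p of the pathway list, 0.0996 by edgeR, for a log2 fold change of 0.50 ± 0.10 (SE), and its groups did not overlap. Its partner Itgb1 had the opposite sign, at 942 ± 30.4 CPM in KO SECs and 1122 ± 120.1 CPM in control SECs (log2 fold change -0.25, adjusted p 0.377).

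Inside the cell, Dok2, the adaptor known as Dok-R that docks on activated Tie2, was at 16.6, 4.50 and 5.58 CPM in KO SECs, against 18.7, 21.3 and 25.2 CPM in control SECs. KO replicate 1 was close to the controls and the other 2 KO libraries were far lower, and the log2 fold change of -1.29 ± 0.52 (SE) had an adjusted p of 0.276 by edgeR. Dok2 is also expressed in macrophages, whose 12 markers summed to 3111, 789 and 1267 CPM in KO libraries, against 2576, 3412 and 4924 CPM in control libraries. Of those 12 markers 10 had negative and 2 positive log2 fold changes (median -1.10), 0 passed the adjusted threshold in edgeR, and their part in the Dok2 values was not tested. Grb2, an adaptor linking receptors to Ras, was at 102 ± 11.7 CPM in KO SECs and 125 ± 8.94 CPM in control SECs, with a log2 fold change of -0.30 and an adjusted p of 0.268.

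Tie2 acts chiefly through PI3K and AKT kinases, which hold FOXO transcription factors out of the nucleus. Of the 8 genes of this arm 7 had negative log2 fold changes, with Akt2 at 29.2, 26.7 and 22.2 CPM in KO SECs, against 43.9, 34.4 and 39.4 CPM in control SECs. These groups did not overlap, and the log2 fold change was -0.59 ± 0.15 (SE), with an adjusted p of 0.148 by edgeR. The downstream effectors Mapk3, an ERK kinase, and Nos3, the endothelial nitric oxide synthase, both had log2 fold changes of -0.09, with adjusted p-values of 0.733 and 0.785. Among the transcription factors, Klf2, a flow-induced gene, averaged 469 ± 63.3 CPM in KO SECs and 644 ± 211 CPM in control SECs (adjusted p 0.388), and Foxo3 was at 111, 133 and 118 CPM in KO SECs, against 192, 143 and 109.8 CPM in control SECs, with overlapping groups (adjusted p 0.50).

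**Figure D5:**
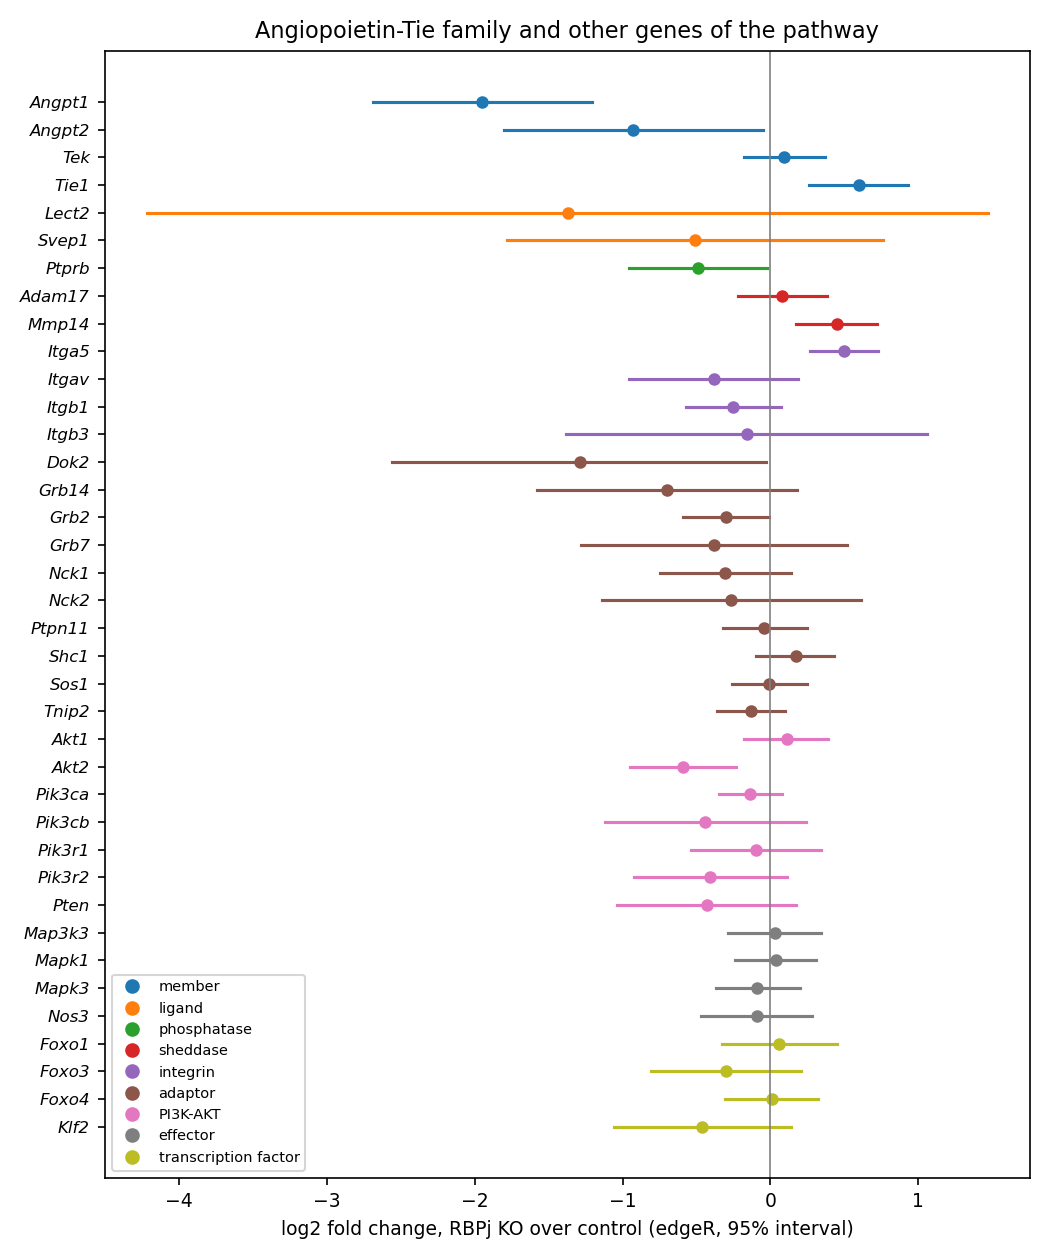
Log2 fold changes (x axis, KO over control, edgeR) with 95% intervals for the 4 genes and 34 of the 35 tested genes of the pathway list (y axis), coloured by role. The whole interval of Angpt1 (-2.69 to -1.21) lies below 0, as do those of Angpt2, Ptprb, Grb2, Dok2 and Akt2, and the intervals of Tie1, Itga5 and Mmp14 lie above 0. The intervals do not adjust for the number of genes.

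FOXO1 induces Angpt2, and a list of 16 reported FOXO target genes was read beside it. Of the 16, 0 passed the adjusted threshold in edgeR, 1 was higher and 1 lower at an unadjusted p under 0.05, beside 17.5% of all tested genes, and 3 had positive and 13 negative log2 fold changes (median -0.21). Pdk4, a kinase that restrains pyruvate oxidation, was at 139, 169 and 185 CPM in KO SECs, against 117, 92.8 and 75.2 CPM in control SECs, with no overlap and a log2 fold change of 0.79 (adjusted p 0.140 by edgeR). Fbxo32, the ubiquitin ligase atrogin-1, averaged 36.9 ± 0.825 CPM in KO SECs and 48.6 ± 5.85 CPM in control SECs, with a log2 fold change of -0.40 and an adjusted p of 0.180.

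Across the 6 libraries, the Pearson correlation of log2 CPM was -0.95 between Angpt1 and Tie1, 0.70 between Tek and Tie1 and 0.52 between Angpt1 and Angpt2. These values are descriptions over 6 points that share the group difference, and many genes reach such values. Of about 10597 genes compared, 606 had a correlation above 0.9 with Tie1, 261 with Angpt1, 183 with Angpt2 and 105 with Tek. The genes most like Tie1 were Ube3c (0.996), Enho (0.995) and Dph6 (0.995), and those most like Tek were Nucks1 (0.988), Timm44 (0.982) and Ddx52 (0.981). The genes most like Angpt1 were Lyrm9 (0.998), Cdk7 (0.991) and Tnfsf13 (0.989), and those most like Angpt2 were Psmd10 (0.998), Comtd1 (0.997) and AK010878 (0.990).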

How the data were processed

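RNA was sequenced from 6 SEC samples, 3 RBPj_KO and 3 control, grouped by their titles. Per the labels, total RNA was extracted with Trizol and sequenced on an Illumina instrument, and the submitters' processing notes name bcl2fastq, TopHat2 2.0.13 and mm10. How reads were counted, on which annotation and whether by strand is not given in the sources used here. Deposited values are raw whole-number counts for each gene, beside gene lengths in bases and RPKM values that the authors computed. Within 0.1%, 100.0% of RPKM values equalled counts divided by length and library total. Columns of the authors' own comparisons were not used. Of 41799 rows, 14709 were at 0 in all libraries, 27 names were restored from dates and 4 lost an alias. No 2 libraries of the same group were alike within sampling noise.

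Counts were tested with edgeR 4.0.16 in R 4.3.3 (TMM, filterByExpr, robust quasi-likelihood F-test, Benjamini-Hochberg over 15404 genes, threshold 0.05), and the fit was tested on simulated data. RPKM served to compare levels between genes. Ratios within libraries were tested by exact two-sided permutation. Alternatives were RLE size factors, DESeq2 1.42.0, limma-voom (limma 3.58.1), no filter, a stricter filter (10 counts in 3 libraries and an average log2 CPM of 1), the replicate number as a block, scaling to pan-endothelial markers, and leaving out each library. The 4 genes and the lists were chosen with earlier results of these data known. Named beside them were, per role of the pathway list and per further list, the 2 genes with the smallest p, the receptor tyrosine kinases above or next to Tek and Tie1, and for each gene the 3 most correlated genes with an average log2 CPM of at least 3. Of the genes so chosen, 1 is not reported here. Limits of 3 counts allow for counting error alone, as PCR copies of a molecule could not be recognised. The study's paper did not describe these libraries and guided only the style.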

Additional observations from a re-analysis of the deposited data

How the results depend on the processing

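The direction of Angpt1, Angpt2, Tie1, Rbpj and the 3 ratios was kept under all alternatives run, and that of Tek turned to -0.17 when libraries were scaled to pan-endothelial markers. Angpt1 passed the threshold without the low-count filter (-1.95), in limma-voom (-1.92) and in DESeq2 (-1.96), and Tie1 in DESeq2 (0.60). The cause of these differences between tools was not tested. Leaving out 1 library at a time gave -2.16 to -1.63 for Angpt1, -1.17 to -0.52 for Angpt2, 0.07 to 0.16 for Tek, 0.52 to 0.69 for Tie1 and -0.72 to -0.48 for Rbpj, with no adjusted p under 0.0977 in edgeR. It gave 0.46 to 1.56 for Angpt2 over Angpt1, -1.21 to -0.62 for Angpt2 over Tek and 0.43 to 0.56 for Tie1 over Tek.

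The number of genes called was less stable. Against 16 higher and 14 lower in edgeR, it was 35 and 20 with RLE size factors, 114 and 62 without the filter, 47 and 26 with the stricter filter, 8 and 26 scaled to pan-endothelial markers, 316 and 222 in limma-voom and 483 and 387 in DESeq2. Leaving out 1 library gave 0 to 23 higher and 0 to 18 lower, with 23 and 18 without KO replicate 1 and 0 in both directions without any other library, where an unadjusted p under 0.05 was found for 969 to 1357 higher and 687 to 1382 lower genes. In the pathway list 1 gene, Dok2, passed without KO replicate 1.

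With the replicate number as a block, 1 gene was higher and 2 lower, with Angpt1 at -1.90 (adjusted p 0.108) and Tie1 at 0.60 (adjusted p 0.132) in edgeR. Deviations of same-numbered samples correlated at 0.194, 0.0313 and 0.419. KO replicates 1 and 3 correlated best with the control of their own number. KO replicate 2 correlated more with control replicate 1 (0.0919). With 3 samples a group these values cannot decide whether same-numbered samples share a batch, and the labels give them only a number. Angpt1 rests on 26 to 29 counts in each KO library, and 3 libraries a group cannot give an exact permutation p under 0.1. Leaving out both KO replicate 1 and control replicate 3, and setting Angpt1 against stellate cell or mural cell markers, were chosen after the data were seen.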

Other observations

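Angiopoietin-like genes encode secreted proteins related to angiopoietins that do not bind Tie2. Of 7 such genes 4 were tested and 0 passed the adjusted threshold in edgeR, with 1 at an unadjusted p under 0.05 (beside 17.5% of all tested genes), while Angptl1, Angptl4 and Angptl7 had 40, 0 and 6 counts in all libraries. Whether the counting could register Angptl4 is not known. Angptl6 was at 5.09, 21.6 and 18.4 CPM in KO SECs, against 39.5, 38.3 and 98.0 CPM in control SECs. Its groups did not overlap, and the log2 fold change was -1.96 ± 0.64 (SE) with an adjusted p of 0.215 by edgeR. Angptl2, also a fibroblast product, was at 12.7, 110.0 and 72.0 CPM in KO SECs, against 85.2, 125 and 346 CPM in control SECs, with overlapping groups and an adjusted p of 0.414. Both were lowest in KO replicate 1 and highest in control replicate 3, the libraries lowest and highest in stellate cell markers (1929 and 14921 CPM).

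Angpt2 is a gene of endothelial tip cells, the leading cells of sprouts, and a list of 12 other tip cell genes, 11 of them tested, was read beside it. By edgeR 0 passed the adjusted threshold, 6 had positive and 5 negative log2 fold changes, and 4 were higher and 1 lower at an unadjusted p under 0.05, beside 9.39% and 8.13% of all tested genes. Apln, the ligand of the apelin receptor, was at 38.9, 17.0 and 20.1 CPM in KO SECs, against 3.63, 3.46 and 3.23 CPM in control SECs. Fscn1, an actin-bundling protein, was at 462, 533 and 466 CPM in KO SECs, against 259, 258 and 222 CPM in control SECs. Neither gene had overlapping groups, and the log2 fold changes of 2.88 and 0.98 both had an adjusted p of 0.0508 by edgeR. Angpt2, with a log2 fold change of -0.93, had the sign of the 5 negative genes. Among them were Esm1, a secreted proteoglycan (-1.63, adjusted p 0.327 by edgeR, overlapping groups), and Dll4, a Notch ligand (-0.72, adjusted p 0.216, no overlap). Both were named after their values were seen. Esm1 was at 108, 63.9 and 64.8 CPM in KO SECs, against 517, 149 and 67.3 CPM in control SECs. Like Angpt2, it was highest in control replicate 1.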
